A study of Homo sapiens with 36 samples.

Results

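The genes described here encode the proteins of the cytosolic ribosome. They are the 76 of 28516 gene symbols in the deposited count table that follow the RPL, RPLP, RPS or RPSA naming of ribosomal proteins and hold at least 1000 read counts summed over the 36 libraries. Of these members, 46 belong to the large subunit and 30 to the small subunit. They were thus chosen by symbol and by the summed count over the 6 conditions, a measured level, and by no difference between conditions. All 76 symbols with such a name passed, so none lies just below the minimum: the lowest totals were 61751 counts for RPS10 and 65091 for RPL36A, and the highest was 1429986 for RPL4.

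RNA-seq was done on hNSC, a commercial human neural stem cell line from Gibco, 48 h after infection with lentivirus, in 6 libraries for each of 6 conditions. MEIS1-OE and MEIS2-OE cells received a CRISPR-activation system with a guide for MEIS1 or MEIS2, transcription factor genes of the homeobox family, and ctrl-OE cells received the same system with a non-targeting guide. MEIS1-KO and MEIS2-KO cells received Cas9 and guides that cut MEIS1 or MEIS2, and ctrl-KO cells received Cas9 and a non-targeting guide. All 6 conditions were thus infected, no uninfected cells were used here, and each library is a bulk pool of infected cells and not a clone. The study asks which genes follow MEIS1 or MEIS2, so each condition was compared with its own control. The comparison of ctrl-OE with ctrl-KO measures what differs between the systems. They differ in their vectors, in the number and dose of viruses and in the form of Cas9, which cannot be told apart. Nothing in the labels says that the 6 libraries of a condition came from separate cultures, so p-values measure the spread between these libraries, which may be technical.

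Ribosomal proteins assemble on ribosomal RNA into the small subunit, which decodes the mRNA, and the large subunit, which forms the peptide bonds. Most are needed in equal numbers, and their mRNAs are among the most abundant in dividing cells such as neural stem cells. Nearly all of these mRNAs begin with a C followed by a run of pyrimidines, the 5′ TOP motif, through which the kinase complex mTORC1 and the RNA-binding protein LARP1 control their translation. RNA-seq measures the amount of mRNA and not its translation.

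The 5′ TOP start can be read from the start sites that RefSeq lists on GRCh38.p14. Promoter entries were found for 62 of the 76 members. At a listed start, 46 of the 62 (74.2%) had a C followed by at least 4 more pyrimidines, against 5.14% of 27305 symbols with an entry. When the run could begin within 5 bases of the start, 53 of 62 (85.5%) had it, against 25.2% of all symbols. The windows below run from 10 bases before the listed start to 20 bases from it, 5′ to 3′ on the coding strand. Capitals mark the pyrimidine run counted from the matching C at or nearest the listed start. Pyrimidines directly before that C, present in several windows, stay in lower case. They are shown for the 4 members called higher in MEIS2-KO, for the pair with the lowest fold changes in ctrl-OE against ctrl-KO, for RPS28, which had the highest, and for RPS26, the member called higher there.
RPS12, chr6:132814559-132814588, plus strand: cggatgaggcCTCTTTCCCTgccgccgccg
RPL12, chr9:127451387-127451416, minus strand: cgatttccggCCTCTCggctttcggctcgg
RPS18, chr6:33272065-33272094, plus strand: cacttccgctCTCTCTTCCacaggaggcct
RPS19, chr19:41860245-41860274, plus strand: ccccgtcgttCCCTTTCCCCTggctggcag
RPL22, chr1:6199576-6199605, minus strand: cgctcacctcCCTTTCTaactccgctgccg
RPL36A, chrX:101391001-101391030, plus strand: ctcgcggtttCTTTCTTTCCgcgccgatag
RPS28, chr19:8321486-8321515, plus strand: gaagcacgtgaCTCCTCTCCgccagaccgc
RPS26, chr12:56041908-56041937, plus strand: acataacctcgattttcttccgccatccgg
Of these, 6 begin the run counted in this way at the listed start and RPS28 begins it 1 base later. RPS26 has no such run that starts within 5 bases of its listed start.

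The libraries held between 15429985 and 22940493 counts, so counting error is small for the members. The mRNAs of the targets moved as labelled. MEIS1 lay at 287 to 323 CPM (counts scaled to a common library size) in MEIS1-OE against 15.7 to 18.8 in ctrl-OE. It lay at 6.43 to 11.2 in MEIS1-KO against 23.7 to 28.0 in ctrl-KO. MEIS2 lay at 793 to 852 CPM in MEIS2-OE against 20.5 to 24.1 in ctrl-OE, and at 10.5 to 13.4 in MEIS2-KO against 23.5 to 27.4 in ctrl-KO. Part of each mRNA thus remained after knockout, and these counts measure neither editing nor protein. The study found the loss of MEIS1 protein hard to detect and could not detect an effect of MEIS2-KO on protein. The neural stem cell markers NES (823 to 2115 CPM), VIM (1741 to 3417) and SOX2 (86.4 to 322) were present in every library, while GFAP, RBFOX3 and PTPRC stayed at or below 0.457, 0.0525 and 0.116 CPM. For the members, 4 libraries stood apart. MEIS2-KO replicate 1 was the smallest library and had the largest share of counts on the members, MEIS1-OE replicate 3 and ctrl-KO replicate 2 were low in GC-rich members, and MEIS2-OE replicate 3 had a higher share on the members than the other libraries of its condition. Results that rest on them are given with and without them, as alternatives added after the data were seen.

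The members took 4.83% to 5.75% of the counts of a library. The median share was 5.02% in ctrl-OE, 5.27% in MEIS1-OE and 4.93% in MEIS2-OE, and 4.98% in ctrl-KO, 5.07% in MEIS1-KO and 5.17% in MEIS2-KO. The ranges of the controls overlapped, with 4.84% to 5.12% in ctrl-OE and 4.86% to 5.06% in ctrl-KO. They separated once library sizes were scaled by TMM, which sets the bulk of genes level between libraries. As a percentage of the scaled size, ctrl-OE lay at 4.57% to 4.97% and ctrl-KO at 5.17% to 5.26%. The scaling factors were 1.02 to 1.08 in the 6 ctrl-OE libraries and 0.936 to 0.965 in the 6 ctrl-KO libraries. In these bulk libraries, fewer cells of a type and less RNA per cell cannot be told apart.

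**Figure D1:**
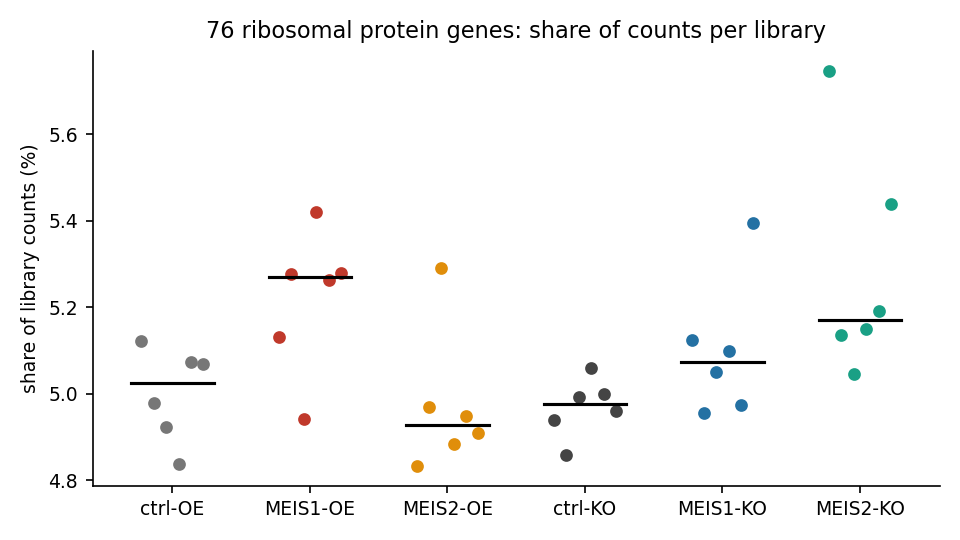
Share of each library's counts taken by the 76 members (percent, vertical axis) in the 6 conditions (horizontal axis), with 1 point per library in replicate order and a bar at the median. The shares of the conditions overlap, and the highest point is MEIS2-KO replicate 1 at 5.75%.

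Levels per kilobase of annotated transcript spanned a wide range. In ctrl-KO, RPS27 at 1833 CPM per kb, RPL7A at 1693 and RPLP0 at 1636 were among the highest, and the median of the 76 was 665. The lowest were RPL28 at 65.0 CPM per kb, RPL14 at 71.2, RPS28 at 78.9 and RPL37 at 81.9. The annotated transcripts of RPL37, RPL14 and RPL28 used for the scaling are 7573, 7136 and 4209 bases long, so the low values of these 3 depend on that length. Members also share sequence with processed pseudogenes, whose symbols numbered 133 for RPL21, 87 for RPL23A and 80 for RPL7A, and their counts are uncertain to the extent that reads were split. RPL17, RPL36A and RPS10 overlap readthrough genes with symbols of their own (469, 38 and 32 counts in all), and so their counts are uncertain too.

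Replicates of a member lay close together. The SD within conditions had a median of 0.090 on the log2 CPM scale, against 0.099 over the 7487 tested genes with a mean of at least 500 counts. RPS18, a protein of the small subunit head, had the smallest spread of the members at 0.050, and RPS28, a short head protein, the largest at 0.44. The GC content of the coding sequences ran from 42.5% (RPL39) to 63.0%, with a median of 51.8%. Over the 76 members, which share the same 36 libraries, the SD followed GC content with a Pearson r of 0.60. A single component held 79.1% of the members' variance within conditions, and the members' loadings on it followed GC content with r = 0.88. Most pairs of members moved together within conditions, with a median pairwise r of 0.46 and 69.3% of pairs above 0. The log2 ratio of the upper to the lower GC quartile, of 19 members each, was lowest in ctrl-KO replicate 2 (-0.89) and MEIS1-OE replicate 3 (-0.82) and highest in ctrl-OE replicate 6 (0.078).

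**Figure D2:**
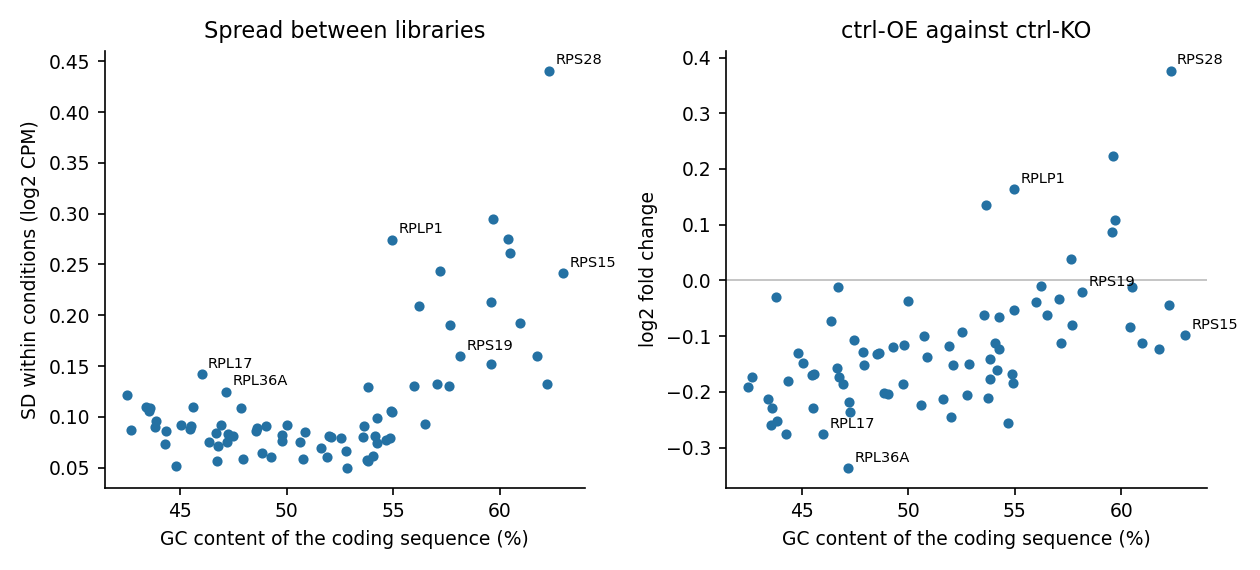
Each point is 1 of the 76 members, placed by the GC content of its coding sequence (percent, horizontal axis). Left, the SD within conditions (log2 CPM), which rises with GC content to 0.44 for RPS28. Right, the log2 fold change of ctrl-OE against ctrl-KO with TMM scaling, where GC-poor members lie below 0 and GC-rich ones near or above it.

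With TMM scaling, more members were called between the controls of the systems than in any other comparison. On that scale edgeR's quasi-likelihood test called 46 of 76 members (60.5%) lower in ctrl-OE than in ctrl-KO at a Benjamini-Hochberg adjusted p under 0.05, against 23.9% of the 19689 genes tested. It called 1 member (1.32%) higher, against 27.5% of all genes. The members' median log2 fold change was -0.13 and that of all tested genes 0.049. Scaled to library totals without TMM, the direction flipped for much of the set: the members' median was 0.018 and that of all genes 0.20, and 3 members were called lower and 7 higher, against 16.0% and 39.5% of all genes. With library totals the members' median was larger in MEIS2-KO against ctrl-KO (0.084) and in MEIS1-OE against ctrl-OE (0.061) than here. The members' median lay 0.18 below that of all genes under either scaling, and no member passed an absolute log2 fold change of 0.58, whereas 22.1% of all genes did so with an adjusted p under 0.05. In 33 members, all 6 ctrl-OE libraries lay below all 6 ctrl-KO libraries in TMM-scaled CPM. The share of all tested genes that separate in this way is not given, so 33 has no background to be set against. DESeq2 called 46 lower, against 23.4% of all genes, and 1 higher.

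RPL36A, an X-linked large subunit protein of the tRNA exit site, had the lowest fold change. Its CPM had a lowest, median and highest value of 72.3, 78.4 and 80.7 in ctrl-OE, and of 89.8, 95.7 and 112 in ctrl-KO. It fell by 0.34 ± 0.069 (SE) on the log2 scale (-20.8%), with an adjusted p of 8.44e-05, and the groups did not overlap. RPL22, a large subunit protein outside the catalytic core, lay at 289, 294 and 308 CPM in ctrl-OE and at 340, 347 and 389 in ctrl-KO. Its log2 fold change was -0.28 ± 0.044 and its adjusted p 1.57e-06. RPL17, which lines the exit tunnel for the nascent chain, lay at 144, 166 and 178 CPM against 180, 185 and 242, and the highest of these values, ctrl-KO replicate 2, stood well above the other 5 libraries. Its log2 fold change was -0.28 ± 0.078 (adjusted p = 0.00303), without that library it was -0.20 with an adjusted p of 0.0147, and without replicate 2 of every condition -0.17 with an adjusted p of 0.0724. RPL21 (-0.26 ± 0.059), RPL10 (-0.26 ± 0.045), which completes the large subunit late in its assembly, and RPS24 (-0.25 ± 0.054) followed, with adjusted p-values of 0.00028, 8.13e-06 and 0.000152.

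With TMM scaling, the decrease was spread over both subunits and over most roles. It included 31 of 46 large subunit members and 15 of 30 small subunit members. Scaled to library totals, 3 large subunit members were lower and 3 higher, and 0 small subunit members were lower and 4 higher. On that scale 16.0% of all genes were lower and 39.5% higher. Both proteins of the 5S ribonucleoprotein, which when free of ribosomes bind the p53 regulator MDM2, were called lower: RPL5 at -0.18 ± 0.050 (adjusted p = 0.00223) and RPL11 at -0.10 ± 0.037 (adjusted p = 0.0222). Of the stalk, which recruits the translation factors, RPLP0 was lower at -0.16 ± 0.047 (adjusted p = 0.00383). RPLP1 had 0.16 ± 0.14 (adjusted p = 0.356) and RPLP2 -0.0095 ± 0.11 (adjusted p = 0.95). Of 9 members at the exit tunnel, 6 were called lower, RPL4 among them with 1668, 1807 and 1865 CPM against 2003, 2079 and 2106. The 4 X-linked members, RPL10, RPL36A, RPL39 and RPS4X, were all called lower. With library totals no member of the 5S particle or the stalk was called, 1 of the 9 at the exit tunnel was lower, and 2 of the 4 X-linked ones were lower.

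Among small subunit members, RPS6, the substrate of the S6 kinases downstream of mTORC1, lay at 1122, 1184 and 1225 CPM in ctrl-OE and at 1345, 1375 and 1456 in ctrl-KO. All 6 ctrl-OE libraries were below all ctrl-KO libraries, and the log2 fold change was -0.24 ± 0.048 (adjusted p = 7.13e-05). RPSA, on the platform of the subunit, had -0.21 ± 0.041 (adjusted p = 4.34e-05). Of 12 head members, 4 (33.3%) were called lower, against 23.9% of all genes, namely RPS25, RPS18, RPS20 and RPS3 at -0.22, -0.15, -0.13 and -0.11. RPS19 lay at 773, 884 and 1045 CPM in ctrl-OE and at 746, 894 and 1015 in ctrl-KO, and the groups overlapped almost entirely. Of 18 genes named as mutated in Diamond-Blackfan anaemia, an inherited failure of red cell formation, 8 were lower and 1 was higher. Scaled to library totals, 0 of these 18 were lower and 3 higher, and of the 12 head members 0 were lower and 1 higher.

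RPS26, a platform protein that contacts mRNA near the exit channel, was the member called higher in ctrl-OE. It lay at 136, 144 and 152 CPM in ctrl-OE and at 119, 131 and 140 in ctrl-KO, so that 4 of 6 ctrl-OE libraries were above all ctrl-KO libraries. Its log2 fold change was 0.14 ± 0.052 (adjusted p = 0.0282), and the call was lost without replicate 1, 2 or 5 and without ctrl-KO replicate 2 alone (adjusted p = 0.0844). RPS28 had the largest positive value, 0.38 ± 0.23, and its adjusted p was 0.166. Its libraries ran from 90.4 to 224 CPM in ctrl-OE and from 58.8 to 141 in ctrl-KO.

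**Figure D3:**
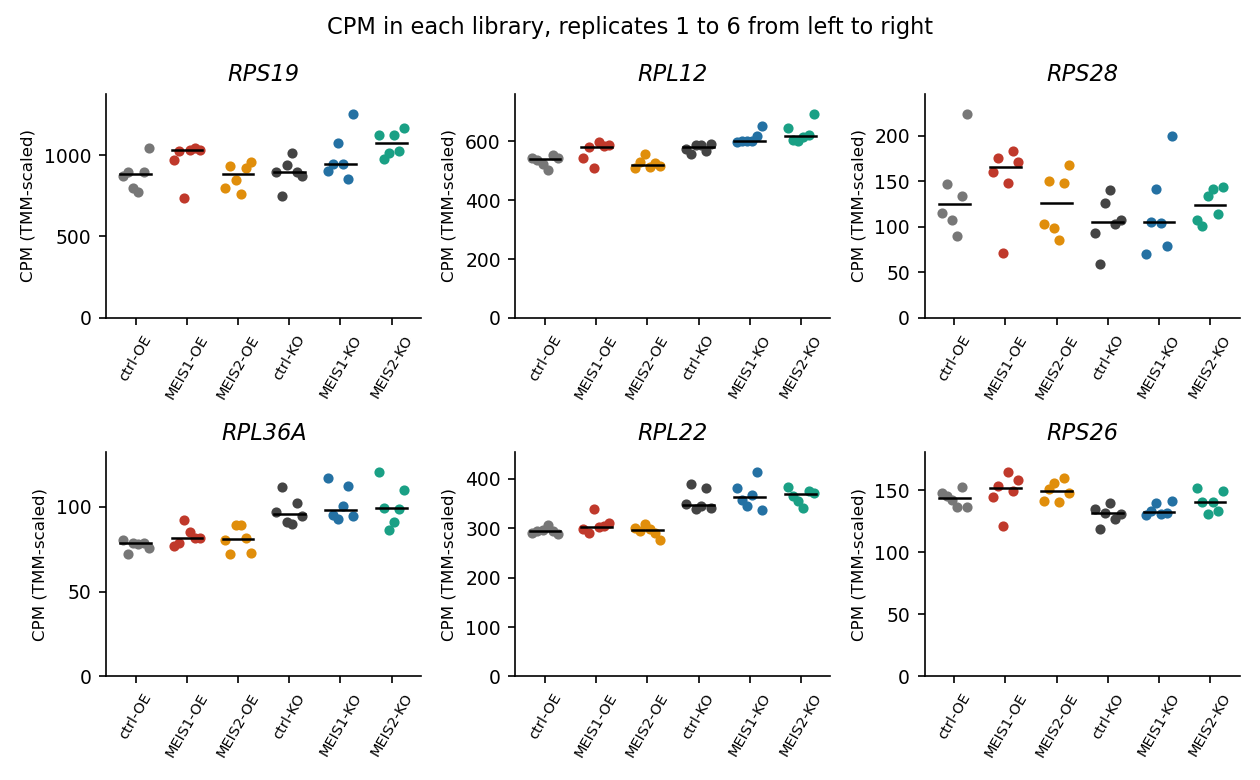
TMM-scaled CPM (vertical axis, from 0) of RPS19, RPL12, RPS28, RPL36A, RPL22 and RPS26 in the 6 conditions, with 1 point per library and a bar at the median. For RPL36A and RPL22 all libraries of ctrl-OE lie below all of ctrl-KO on this scale, RPL12 of MEIS2-KO lies above all of ctrl-KO, and RPS28 is spread widely in every condition.

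GC content and cell type markers moved with this comparison. In the lower GC quartile 16 of 19 members were called lower and in the upper quartile 0 of 19, and the medians were -0.17 and -0.034. Over tested genes with a GC value and a mean of at least 20 counts, the median log2 fold change ran from -0.095 at or below 40% GC to 0.18 above 60%. With offsets that level each library over GC content, an alternative added after the data were seen, the quartile medians were -0.10 and -0.11, and 41 members were lower, 32 of which were among the 46, against 26.5% of all genes. RPL11, RPL12, RPL27, RPL39 and RPS4X were among those no longer called. The summed CPM of 8 neural stem cell markers was 2959 to 3851 in ctrl-OE and 4276 to 4806 in ctrl-KO, that of 6 neuron markers 404 to 585 and 965 to 1009, and that of 4 fibroblast markers 193 to 332 and 527 to 696, with no overlap in any of the 3. Of these markers, 6 of 8 for neural stem cells and 3 of 5 tested for neurons were called lower and none higher. The fibroblast markers went both ways: the sum was mostly COL3A1 (178 ± 32.1 CPM in ctrl-OE and 574 ± 59.3 in ctrl-KO, SD, n = 6), 2 of the 4 were lower, and COL1A1 was higher (0.61 ± 0.21). Of the neuron markers, MAP2 (208 to 818 CPM), TUBB3 (124 to 318) and SYT1 (30.1 to 58.7) were present in every library. RBFOX3, STMN2 and DCX stayed at or below 0.0525, 0.347 and 1.49 CPM. The summed CPM of the astrocyte, oligodendrocyte, pluripotent and endothelial markers was also lower in ctrl-OE without overlap, and that of the blood markers overlapped. Genes of the astrocyte, oligodendrocyte and pluripotent lists were called in both directions. The part of these cell markers in the members' difference was not tested. Without ctrl-KO replicate 2 alone, 42 members were lower, all of them among the 46, against 22.6% of all genes, and RPL23A, RPL24, RPL34 and RPS4X were lost. Without replicate 2 of every condition 35 members were lower, and RPL11, RPL17, RPL39 and RPS4X were among those lost, and without each of the other replicates 38 to 47. The share of all genes called lower is not given for these fits without a replicate number.

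The 5′ TOP start was found in lower members and in the others: 25 of 36 lower members with a promoter entry (69.4%) and 21 of the 26 others (80.8%) had it at the listed start. Each 300-base promoter entry, 250 bases before and 50 after the start, was also searched on both strands for fixed letters. CCGGAA, the core of ETS family sites, was in 35 of 62 (56.5%, against 20.1% of all symbols), TCGCGAGA in 12 (19.4% against 1.37%), GCCATNTT, a YY1 core, in 10 (16.1% against 7.97%) and TATAAA in 5 (8.07% against 14.0%). TGACAG, a core bound by MEIS proteins, was in 4 (6.45% against 18.6%), which were RPL6, RPL10, RPL24 and RPL32. A match describes letters in the window and not a bound site.

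In MEIS2-KO, 4 members were called higher than in ctrl-KO and none lower by edgeR, with adjusted p under 0.05. That is 5.26% of the members against 4.04% of all tested genes called higher, a share close to the background, and 5.98% of all genes were called lower (10.0% in either direction). Before adjustment, 13 members had p under 0.05, for which the share of all genes is not given. DESeq2 called 8 higher, against 4.64% of all genes. The log2 fold change was above 0 in 73 of 76 members and in 47.2% of all genes, with medians of 0.068 and -0.011. The members share libraries and scaling and move together, so their signs are not independent. Cell type markers moved with this comparison too. The summed CPM of the 8 neural stem cell markers was 4868 to 5965 in MEIS2-KO and 4276 to 4806 in ctrl-KO, without overlap, although 3 of the 8 were called lower and 1 higher, VIM (0.33 ± 0.066). The 2 endothelial markers summed to 24.7 to 30.3 CPM against 20.2 to 23.2, also without overlap, and COL1A1 was the 1 of 4 fibroblast markers called higher (1.06 ± 0.21). The part of these markers in the members' values was not tested.

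RPS12, a small subunit head protein, lay at 472, 484 and 490 CPM in ctrl-KO and at 500, 527 and 582 in MEIS2-KO. All 6 MEIS2-KO libraries were above all controls, by 0.14 ± 0.036 on the log2 scale (10.5%, adjusted p = 0.00845). RPL12, which forms the base of the stalk, lay at 558, 581 and 590 CPM against 599, 618 and 692 and also did not overlap, with 0.12 ± 0.038 (adjusted p = 0.0309). RPS18 lay at 813, 815 and 848 CPM against 834, 881 and 928, with 0.10 ± 0.033 (adjusted p = 0.0484). RPS19, the gene most often mutated in Diamond-Blackfan anaemia, lay at 746, 894 and 1015 CPM against 973, 1073 and 1165, and 4 of 6 MEIS2-KO libraries were above all controls. It had the largest of the 4 changes, 0.26 ± 0.085 (19.8%, adjusted p = 0.0429). At the listed starts shown above, all 4 begin with the pyrimidine run. RPS19 has another listed start (window chr19:41860394-41860423), at an A that directly follows at least 5 pyrimidines in a row. On GRCh37, RPS12 lies at chr6:133135708-133138703, RPL12 at chr9:130209953-130213685, RPS18 at chr6:33239852-33244288 and RPS19 at chr19:42364325-42376993.

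The count rested on few libraries. Without MEIS2-KO replicate 1, a choice made after the data were seen, RPS12 alone was called (0.12, adjusted p = 0.0318), against 3.96% of all genes called higher, and the members' median was 0.039. Without ctrl-KO replicate 2, RPS12 and RPL11 were called, against 3.27% of all genes, and RPS19 was at 0.22 (adjusted p = 0.155). Leaving out 1 replicate number of every condition gave 0 to 9 calls, with 0 without replicate 1, 1 without replicate 2, 5 or 6, which was RPS12 each time, and 9 without replicate 3. For these fits the share of all genes called higher is not given. GC content moved with the comparison too: the median was 0.14 in the upper and 0.041 in the lower GC quartile of members. Over tested genes with a GC value and a mean of at least 20 counts, it ran from -0.13 at or below 40% GC to 0.10 above 60%. With GC-adjusted offsets 22 members were higher, the 4 among them, against 5.67% of all genes, and the quartile medians were 0.082 and 0.11. With the same offsets and without MEIS2-KO replicate 1, 10 members were higher, against 5.39% of all genes, again with the 4 among them. Over all settings tried, between 0 and 22 members were higher in MEIS2-KO and none was lower.

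In MEIS1-OE, no member was called by edgeR against ctrl-OE, while 9.09% of all genes were called in either direction and 5.52% as higher. At an unadjusted p under 0.05 there were 24 members, which have no background here, since the share of all genes is not given. DESeq2 called 0 members. The log2 fold change was above 0 in 76 of 76 members, from 0.036 to 0.20, and in 49.6% of all genes. The medians were 0.087 and -0.0013. Here too the signs are not independent, because the members share libraries and scaling and move together. Under every scaling, filter, tool and left-out replicate tried, 72 to 76 members lay above 0, but these settings reuse the same libraries. The nearest to the threshold was RPL27, a large subunit protein, at 349, 372 and 384 CPM in ctrl-OE and 366, 401 and 423 in MEIS1-OE (0.11 ± 0.038, adjusted p = 0.0529). RPL7A, of the large subunit, had 0.11 ± 0.037 (adjusted p = 0.0586), and RPS3, a head protein at the mRNA entry, 0.11 ± 0.038 (adjusted p = 0.059). In RPL27, RPL7A and RPS3, 5 of 6 MEIS1-OE libraries were above all controls. RPS13 was the member in which all 6 were, at 450 to 493 CPM against 390 to 439 (adjusted p = 0.073). A p that misses the threshold does not show that these members were equal.

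MEIS1-OE replicate 3 was the lowest library of its condition for many GC-rich members. RPLP1 lay there at 307 CPM and at 482 to 562 in the other 5, RPLP2 at 185 and 261 to 292, RPS28 at 71.6 and 148 to 184, and RPS19 at 733 and 967 to 1043. Without this library, an alternative added after the data were seen, 9 members were called higher: RPL12, RPL19, RPL27, RPL37, RPL7A, RPS10, RPS12, RPS14 and RPS3, against 6.76% of all genes. Their log2 fold changes were 0.12 to 0.19. With GC-adjusted offsets and all libraries 17 were called higher, against 7.25% of all genes, and with both changes 30, against 7.84%. The offsets brought a trend with GC content into this comparison: over the members, r of the fold change with GC went from 0.13 to -0.67, and the medians of the upper and lower GC quartiles, both 0.087 before, became 0.0395 and 0.11. The largest number under a planned setting was 5, without replicate 3 of every condition, where the share of all genes called higher is not given.

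**Figure D4:**
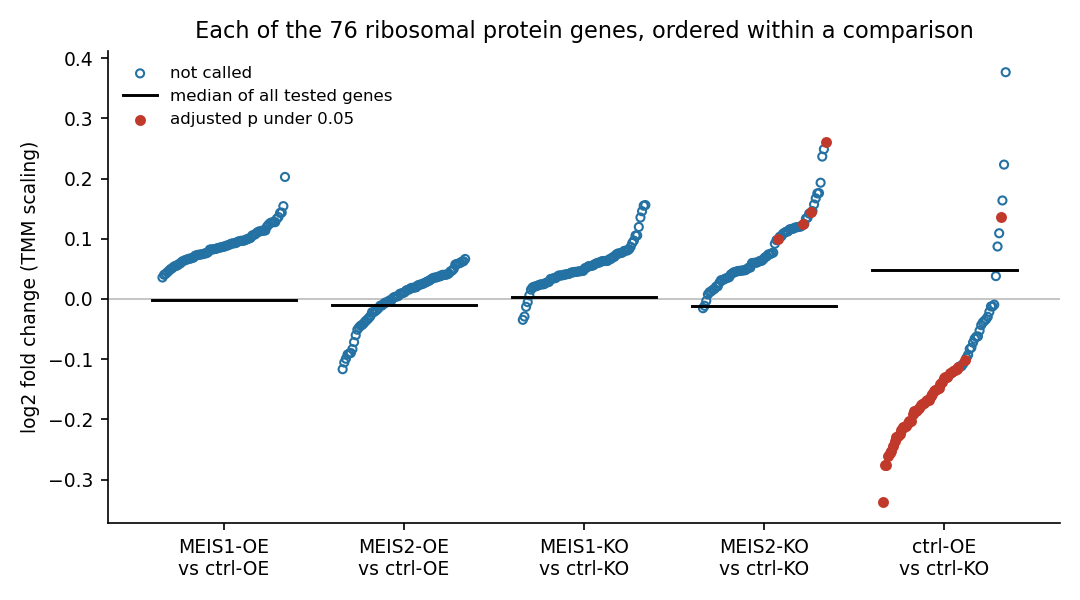
Log2 fold change with TMM scaling (vertical axis) of each of the 76 members in 5 comparisons, ordered within a comparison. Filled points have an adjusted p under 0.05 and the black line is the median of all tested genes. In MEIS1-OE all open points lie above 0, and in ctrl-OE against ctrl-KO most points lie below 0, a direction that flips for many members when libraries are scaled to their totals.

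In MEIS1-KO, edgeR and DESeq2 called 0 members against ctrl-KO, and 1.46% of all genes were called. The fold change was above 0 in 72 members and in 50.9% of all genes. The members' median was 0.049, with a range of -0.035 to 0.16. At an unadjusted p under 0.05 there were 4, RPL27 (0.082 ± 0.038), RPL12 (0.080 ± 0.038), RPL11 (0.077 ± 0.037) and RPS12 (0.075 ± 0.036). The share of all genes at that threshold is not given. In RPS12 and RPL12, the members without overlap in MEIS2-KO as well, all 6 MEIS1-KO libraries were above the 6 ctrl-KO libraries, at 492 to 524 CPM for RPS12 and 598 to 651 for RPL12. Since the ctrl-KO libraries serve for MEIS1-KO and MEIS2-KO alike, these values are not independent of each other.

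In MEIS2-OE, no member was called by edgeR or DESeq2 against ctrl-OE, none had an unadjusted p under 0.05, and 1.35% of all genes were called. The fold changes ran from -0.12 to 0.066 and were above 0 in 45 of 76 members. Their median was 0.010 and changed sign with library totals (-0.0011), without replicate 3 of every condition (-0.016) and without MEIS2-OE replicate 3 alone (-0.012). They followed GC content with r = -0.75 over the members, with medians of -0.051 in the upper and 0.034 in the lower quartile.

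The study's own contrasts subtract the knockout effect from the activation effect. For MEIS1, edgeR and DESeq2 called 0 members, none had an unadjusted p under 0.05, and 3.48% of all genes were called. The median of the members was 0.035 and 63 of them lay above 0. For MEIS2, both tools called 0 members and 2.56% of all genes were called by edgeR. The median was -0.051, 15 members lay above 0, and 5 had an unadjusted p under 0.05, among them RPL12, RPS12, RPS19 and RPS18. For these 5 the share of all genes is not given. With GC-adjusted offsets RPL11 alone was called lower in this contrast, against 1.99% of all genes.

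Compared directly, MEIS1-OE and MEIS2-OE differed in no member by edgeR or DESeq2, while 7.75% of all genes were called. The fold change was above 0, that is higher in MEIS1-OE, in 75 members and in 49.7% of all genes. The members' median was 0.077, and 13 of them had an unadjusted p under 0.05, for which the share of all genes is not given. The nearest to the threshold was RPL12 with 0.11 ± 0.038 (adjusted p = 0.068). Without MEIS1-OE replicate 3, 11 members were called higher in MEIS1-OE than in MEIS2-OE, against 6.48% of all genes, and without MEIS2-OE replicate 3 there were 5, against 4.62% of all genes. Between MEIS1-KO and MEIS2-KO, both tools called 0 members, none had an unadjusted p under 0.05, and edgeR called 0.0152% of all genes.

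**Figure D5:**
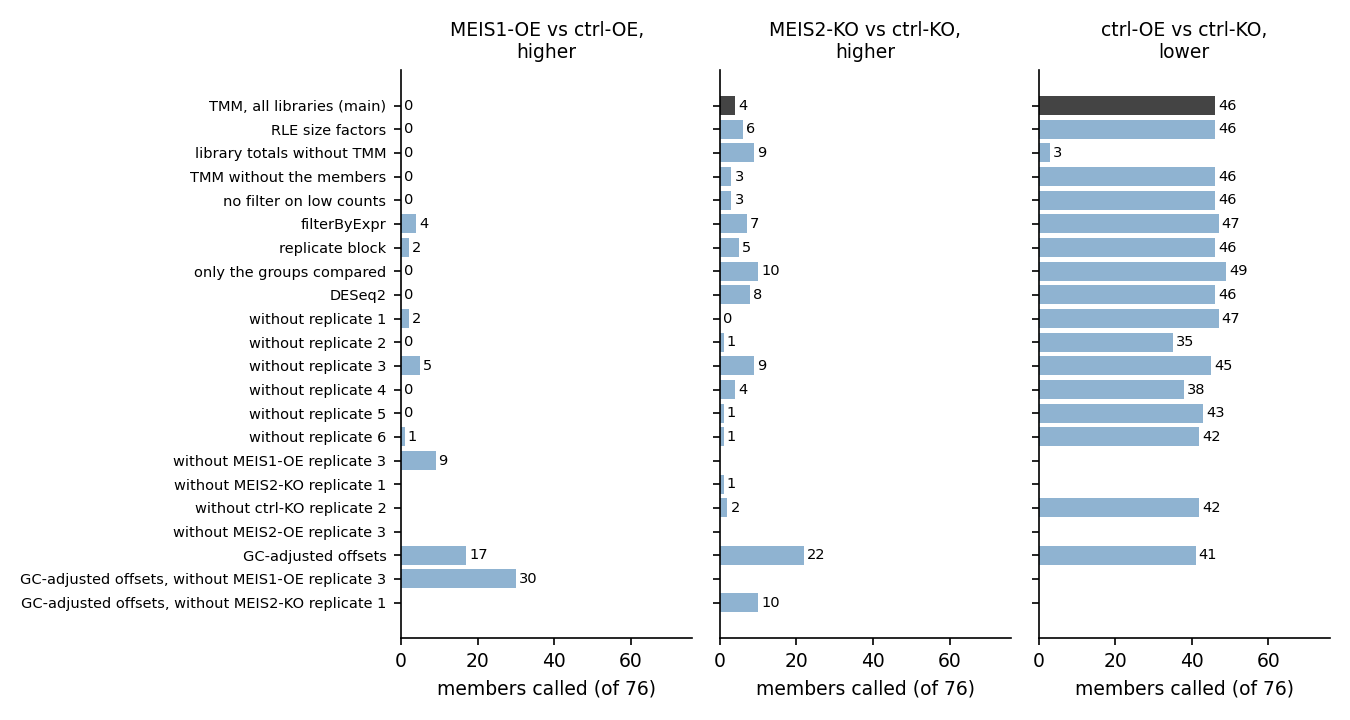
Number of the 76 members called (adjusted p under 0.05, horizontal axis) under each setting (vertical axis) for higher in MEIS1-OE, higher in MEIS2-KO and lower in ctrl-OE against ctrl-KO, where a setting with no number was not run for that comparison. The dark bar is the fit with TMM and all libraries, at 0, 4 and 46, and scaling to library totals takes the last from 46 to 3.

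Several ribosomal protein genes have a paralog that can replace them in the ribosome. Of 7 paralogs tested in ctrl-OE against ctrl-KO, 3 were higher and 3 lower with TMM scaling, and 3 higher and 2 lower with library totals. RPL39L, a paralog of the tunnel protein gene RPL39, lay at 7.64 ± 1.03 CPM (SD, n = 6) in ctrl-OE and 13.0 ± 0.827 in ctrl-KO, which exceeded any member in size with a log2 fold change of -0.77 ± 0.088 (adjusted p = 1.3e-09). RPS27L (-0.27 ± 0.053) and RPL36AL (-0.13 ± 0.054) were also lower, though RPL36AL had 0.014 with library totals (adjusted p = 0.831), whereas RPL7L1 (0.12 ± 0.038), RPL26L1 (0.18 ± 0.057) and RPL22L1 (0.17 ± 0.070) were higher. RPL22 itself was lower in the same comparison, the opposite direction to RPL22L1. RPS27L, a target of p53, was higher in MEIS2-KO at 252 ± 14.7 CPM than in ctrl-KO at 221 ± 17.2 (0.19 ± 0.053, adjusted p = 0.0174), and RPS27 had 0.046 ± 0.052 there. In MEIS1-KO against ctrl-KO, and between the knockouts, 0 of the 7 paralogs were called. RPL7L1 was higher in MEIS1-OE than in ctrl-OE (0.13 ± 0.038, adjusted p = 0.0249).

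Other parts of the translation machinery were read from lists drawn up with earlier results of these data known, with TMM scaling, under which 23.9% of all genes were lower and 27.5% higher in ctrl-OE than in ctrl-KO. In this comparison, 5 of 10 elongation and termination factors were lower and 1 higher, with a median of -0.15. EEF1A1 (-0.22 ± 0.037), which delivers aminoacyl-tRNA, and EEF1B2 (-0.40 ± 0.043), a subunit of its exchange factor, were among the lower, and the release factor gene ETF1 (0.16 ± 0.043) was the higher one. Of 17 other genes whose mRNAs carry a 5′ TOP, 10 were lower and none higher, with a median of -0.16, HNRNPA1 (-0.54 ± 0.046) and NAP1L1 (-0.41 ± 0.054) among them. This list overlaps that of elongation and termination factors, and EEF1A1 and EEF1B2 are counted in both. Of the further ribosome-bound proteins, GNB2L1, the gene of RACK1, (-0.20 ± 0.048) was lower, and FAU had 0.016 ± 0.10. The list of 34 initiation factors had 10 lower (29.4%, near the share of all genes), such as EIF3L (-0.27 ± 0.046), and 3 higher. With library totals, 2 elongation and termination factors were lower and 2 higher, 4 other 5′ TOP genes were lower and 3 higher, GNB2L1 had -0.058 (adjusted p = 0.275), and 3 initiation factors were lower and 17 higher.

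Ribosome biogenesis went both ways, with 19 of 46 genes lower and 7 higher. FBL, the rRNA 2′-O-methyltransferase fibrillarin (-0.42 ± 0.044), and NOP56 (-0.29 ± 0.039), its partner in box C/D particles, were lower. SBDS, which frees the large subunit of an anti-association factor (0.76 ± 0.059), and HEATR3 (0.59 ± 0.067) were higher. Of 17 genes of mTORC1 and of 5′ TOP control, 9 were lower, including MTOR (-0.23 ± 0.036) and CNBP (-0.29 ± 0.036), and 3 higher, including AKT1S1 (0.46 ± 0.089). Of 11 snoRNA host genes, 4 were lower and 4 higher. With library totals, 6 biogenesis genes were lower and 15 higher, and 4 genes of mTORC1 and 5′ TOP control were lower and 6 higher. In MEIS2-KO, the p53 targets CDKN1A (0.52 ± 0.074, adjusted p = 1.29e-05) and MDM2 (0.32 ± 0.069, adjusted p = 0.0017) were higher than in ctrl-KO. They belong to a list of 4 genes of p53 and nucleolar stress. Of these 4, 1 was called higher in MEIS1-KO too, where the largest log2 fold change was 0.39. Between MEIS1-KO and MEIS2-KO 0 of the 4 were called.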

How the data were processed

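The deposited table held whole-number read counts per gene, not normalized, for 36 libraries of hNSC. Per the labels, the authors prepared poly-A selected, stranded paired-end libraries with reads of 100 bases. They aligned to hg19 with STAR (2.4.2a in the design text, 2.7.0a in the submitters' processing notes, which also name Trimmomatic 0.39) and counted with HTSeq 0.6.0. The annotation and strand setting are not given in the sources used here. Members and gene lists were chosen with earlier results of these data known.

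Genes with at least 10 counts over all libraries (19689) entered one edgeR 4.0.16 quasi-likelihood fit of 6 groups (R 4.3.3, limma 3.58.1) with TMM scaling. P-values were adjusted by Benjamini-Hochberg over all tested genes, and a call is an adjusted p under 0.05. Counts of members at an unadjusted p under 0.05 are printed without the share of all genes. CPM are TMM-scaled, and SE is the log2 fold change over the root of F. The script was tested on simulated data. DESeq2 1.42.0 was an alternative, beside other scalings, other filters, a replicate block and left-out libraries. GC-adjusted offsets used a smooth on the GC content of the coding sequence, known for 16673 genes (84.7%).

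Named members were the 6 called with the largest and the 6 with the smallest fold change in each comparison with a control (the 3 with the smallest p where none was called), members fixed by role, and those with the most and fewest counts. Up to 4 genes were named per other list. RPS13, RPS14, RPL19 and others named only as called under an alternative, and RPS28, were chosen after their values were seen. Some genes are counted but not reported by name here.

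Same-numbered libraries were not treated as pairs. Libraries of a condition differed by more than sampling noise (chi-square per degree of freedom 2.70 to 37.9). Libraries held 15429985 to 22940493 counts, and each member at least 61751 over all libraries, which leaves little counting error. Coordinates of genes are from GRCh37, and promoter sequences from RefSeq on GRCh38.p14.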

Additional observations from a re-analysis of the deposited data

Results flagged for a closer look

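Among 192 groups of 6 libraries (31 members and the share of counts in 6 conditions), 20 had a library far from the other 5, where chance gives about 1 in 20 for independent groups, which these are not, since they share libraries. In MEIS1-OE replicate 3, 7 of its 8 values were low: RPLP0 at 1465 CPM (1682 to 1790 in the others), RPLP1 at 307 (482 to 562), RPLP2 at 185 (261 to 292), RPS19 at 733 (967 to 1043), RPS12 at 460 (515 to 528), RPS10 at 71.6 (86.1 to 94.3) and RPS28 at 71.6 (148 to 184). RPL17 was high there at 196 CPM (163 to 175). In ctrl-KO replicate 2, RPL39 was high at 306 CPM (252 to 271), RPL17 at 242 (180 to 199) and RPL21 at 644 (520 to 554), and RPL10 was low at 927 (1031 to 1064). These 2 libraries also had the lowest ratios of GC-rich to GC-poor members.

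The other 8 lay in 5 libraries. MEIS2-OE replicate 3 was high in RPS3 (1351 CPM, 1183 to 1245 in the others), RPS18 (793, 710 to 734) and the members' share of counts (5.29%, 4.83% to 4.97%). MEIS1-KO replicate 6 was high in RPLP0 (1989 CPM, 1707 to 1797) and RPL12 (651, 598 to 616). RPL17 was high in MEIS2-KO replicate 1 (246 CPM, 175 to 196) and RPS18 in ctrl-KO replicate 5 (848, 813 to 820). RPS13 was low in ctrl-OE replicate 6 (390 CPM, 426 to 439).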

How the results depend on the processing

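Calls of members in MEIS2-OE, in MEIS1-KO and between the knockouts stayed at 0 under every setting tried. Members called higher in MEIS1-OE (0) were 4 with filterByExpr, 2 with the replicate block, 0 to 5 with a replicate left out, 17 with GC-adjusted offsets, 9 without MEIS1-OE replicate 3 and 30 with both. Those higher in MEIS2-KO (4) were 9 with library totals, 7 with filterByExpr, 10 in a fit of only the groups compared, 8 with DESeq2, 0 to 9 with a replicate left out, 22 with GC-adjusted offsets, 1 without MEIS2-KO replicate 1, 10 with both and 2 without ctrl-KO replicate 2. In ctrl-OE against ctrl-KO, members lower (46) were 3 and members higher (1) were 7 with library totals, and the members' median was 0.018. Members higher were 2 in a fit of only these groups and 0 without ctrl-KO replicate 2, and with a replicate left out 0 to 2 were higher and 35 to 47 lower. With library totals, RPL11 (0.048), RPS27 (0.11), RPS4X (0.017), RPL27 (0.029), RPS3 (0.034), RPL24 (0.019), RPL12 (0.030), RPS12 (0.14) and RPL23A (0.031) changed sign, as the construction of that scaling moves every gene up by the same amount. In MEIS1-OE against MEIS2-OE (0 higher), 1 member was called with filterByExpr, 0 to 13 with a replicate left out, 3 with GC-adjusted offsets, 7 with these and without MEIS2-KO replicate 1, 11 without MEIS1-OE replicate 3, 19 with both and 5 without MEIS2-OE replicate 3. In the MEIS2 contrast 1 member was lower with GC-adjusted offsets. Settings with GC content or single libraries were chosen after the data were seen.

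With the replicate number as a block, 2 members were higher in MEIS1-OE, RPL7A and RPS14, 5 in MEIS2-KO, and 46 were lower in ctrl-OE. The labels give the numbers no shared source. The mean correlation of same-numbered libraries' deviations was 0.0795 (0.279 for number 6) and that of other numbers -0.017, 43 of 90 pairs exceeded 0.1, and 14 of 36 libraries correlated best with their own number, so the block was kept as an alternative. The share of counts without mitochondrially encoded genes was not run, since no symbol begins with MT-. Depth limits little here, and the smallest member held 61751 counts. Changes of about 0.1 on the log2 scale are near the spread between libraries.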

Other observations

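In ctrl-OE against ctrl-KO, 27.5% of all genes were higher and 23.9% lower with TMM scaling. Of 76 mitochondrial ribosomal protein genes, which serve the separate ribosome of mitochondria, 20 were higher (26.3%) and 14 lower (18.4%), with a median log2 fold change of 0.050, near that of all tested genes (0.049). Of 79 nuclear genes of oxidative phosphorylation, 24 were higher (30.4%) and 7 lower (8.86%), with a median of 0.078. Of 56 replication-dependent histone genes, 13 were higher (23.2%) and 3 lower (5.36%). The shares of higher genes were thus near that of all genes. With library totals, 36, 46 and 15 genes of these lists were higher and 4, 1 and 3 lower. In MEIS2-KO, 1 mitochondrial ribosomal protein gene was higher and 2 were lower, and in MEIS1-OE 2 were higher and none lower.

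SNHG1 (-0.54 ± 0.065) was lower and SNHG7 (0.75 ± 0.11) higher in ctrl-OE, both of them host genes of snoRNAs. SESN2, an mTORC1 inhibitor induced by stress, was higher in MEIS2-KO than in ctrl-KO at 0.46 on the log2 scale. Of the 17 genes of mTORC1 and 5′ TOP control, 1 was called higher in MEIS1-KO, where the largest log2 fold change was 0.30. Between the knockouts 0 of the 17 were called.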
